A study of Homo sapiens with 12 samples.

Results

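RNA 3′ ends recovered with FLAG-tagged STAU1 were compared with the 3′ ends of the lysate they came from. The comparison covered every poly(A) site with a mean of at least 10 reads over the 4 STAU1 libraries, 25818 of the 640413 sites counted in the pull-down experiment. Of these, 25160 passed the filter on low counts and were tested, and 658 were not. The cells were HEK293T, a human embryonic kidney line, in the STAU1 knockout clone C8, made with a Cas9 nickase and paired nicks. All 8 libraries came from this single clone, so the controls carried the knockout too. The STAU1 libraries came from cells transiently expressing STAU1-FLAG, as a pull-down (STAU1_IP) and as total lysate (STAU1_Input). The control libraries came from cells transiently expressing FLAG-GFP (GFP_IP and GFP_Input), each group with 2 replicates. The bait was therefore introduced protein, from a construct whose level relative to native STAU1 was not given. The labels do not say whether replicates were separate cultures, so the p-values cover no more than library-to-library spread.

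Staufen1 (STAU1) is a double-stranded-RNA-binding protein that associates with base-paired stretches in mRNAs, often in the 3′ untranslated region. It is known for mRNA transport, for effects on translation and for Staufen-mediated decay, in which it recruits the helicase UPF1. One gene can give several mRNA 3′ ends through alternative polyadenylation, and a binding protein may meet only some of them. The assay, 3′READS+, sequences the last stretch of polyadenylated RNA, so each read counts one 3′ end. A ratio of pull-down to input describes a change in the share of reads, and a site gained in share does not have to be bound.

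The STAU1 pull-down libraries held 6212606 and 5727812 reads, and their inputs held 5567893 and 9655646. The GFP pull-downs were shallower, with 1291888 and 1245270 reads. One input stood apart: STAU1 input replicate 1 had reads at 99156 sites, against 175098 in replicate 2 and 179568 and 188458 in the STAU1 pull-downs. Inside the STAU1 gene, 2 ends on chromosome 20 separated the libraries by construct. The end at 47732337 had 114 and 136 reads in the STAU1 pull-downs, 80 and 178 in their inputs, and 0 in all 4 GFP libraries. The end at 47734604 had 33 to 160 reads in the STAU1 libraries and 1 in the GFP libraries together. Endogenous STAU1 transcript ends remained present in the knockout, since the end at 47730063 had 10 to 68 reads in the GFP libraries. Nuclear ends are written below as chromosome, strand and hg19 position.

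Gained and lost 3′ ends were nearly equal in number. Of the tested members, 1031 were higher in the STAU1 pull-down than in its input (4.10%, against 3.06% of all tested sites) and 1006 were lower (4.00%, against 2.99%), by edgeR's quasi-likelihood test with Benjamini-Hochberg adjustment over 33744 sites at 0.05. Gains exceeded 2-fold at 867 ends, 4-fold at 378 and 8-fold at 246. Losses exceeded these sizes at 861, 292 and 115 ends. Most changes above 8-fold, in either direction, were at less abundant ends, described below, where ratios are less certain. The gained ends took 22.0% and 21.1% of the reads in the 2 pull-downs and 8.39% and 8.59% in the 2 inputs. The lost ends took 16.03% and 16.59% in the pull-downs and 37.1% and 36.4% in the inputs. The lost ends were about as many as the gained ends and carried far more of the input reads. The median log2 ratio over all members was 0.04, with quartiles at -0.74 and 0.88. The counts rested on single libraries: without pull-down replicate 1 they were 545 higher and 564 lower, and without input replicate 1 they were 443 higher and 703 lower. Without the low-count filter 319 were higher and 853 lower, and with library totals in place of TMM scaling 1411 were higher and 834 lower, so the higher share of calls moved from 50.6% to 27.2% and 62.9%.

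The same members were read in the GFP pull-down, where the bait is an unrelated protein. Over all tested sites, 711 (2.11%) were higher and 1348 (3.99%) lower in the GFP pull-down than in its input. Among the STAU1-gained ends, 243 were also higher with GFP and 27 were lower, with a median GFP log2 ratio of 0.60 against 1.56 with STAU1. Among the STAU1-lost ends, 550 were also lower with GFP and 1 was higher, with medians of -1.25 and -1.57. The 2 comparisons share no library. The difference between them, STAU1 pull-down over input against GFP pull-down over input, was tested directly in the same fit and is called the double ratio. It was positive and past the threshold at 179 sites (0.530%) and negative at 53 (0.157%) of all tested. Among the gained ends 112 passed it upward, and among the lost ends 9 passed it downward. These ends were chosen by the STAU1 ratio, which is part of the double ratio, so the 2 counts are not independent of that choice.

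**Figure D1:**
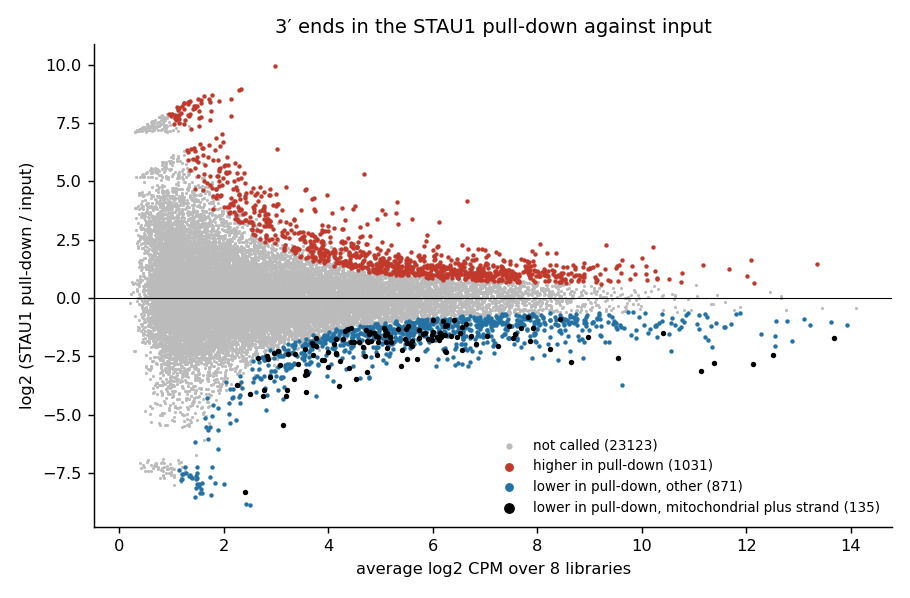
The log2 ratio of STAU1 pull-down to input of every tested member (y axis) is plotted against its average log2 CPM over 8 libraries (x axis). The 1031 higher ends are red, the 1006 lower ends are blue or, on the mitochondrial plus strand, black (135 ends), and the ends not called are grey and spread widely where reads are few.

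Calls were more frequent among abundant ends. CPM here means counts scaled by the TMM-adjusted library size. With the members in 10 equal bins by average log2 CPM, 1 of 2516 in the lowest bin was higher and 0 were lower. In the fifth bin 51 were higher and 18 lower, and in the top bin 428 were higher and 483 lower. Among the 2235 members with an average log2 CPM of at least 6, 395 were higher (17.7%) and 437 lower (19.6%). These shares are the background for the abundant genes below, though not matched to their level. The largest gains among those members were 17.7-fold, 9.54-fold and 4.97-fold, and the largest losses 13.4-fold, 8.69-fold and 7.66-fold. Most changes above 8-fold were thus at lower levels. The median log2 ratio was 0.70 in the lowest bin, 0.23 in the second, 0.04 in the fifth and -0.01 in the top bin. The low-count filter passes an end with enough reads in 2 libraries, so a low end can enter through the side where it is high. The part of this in the medians of the low bins was not tested. At the minimum of 10 reads nothing separated the 2 sides of the line. Members with a mean less than 0.5 reads above it had 0 calls among 638 tested and a median of 0.45. Sites up to 0.5 reads below it had 1 call among 676 and a median of 0.30.

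The 15 strongest gained ends with an average log2 CPM of at least 6 were led by an end inside UBE2R2, a ubiquitin-conjugating enzyme. This end, at 9:+:33834911, lies within the gene and not at its known 3′ end. It had 2380 and 1807 reads in the STAU1 pull-downs against 117 and 147 in the inputs, or 367.7 and 297.7 CPM against a mean of 18.8. In the GFP libraries it had 39.4 and 29.2 CPM in the pull-downs against 12.8 and 17.1 in the inputs. Every pull-down library was above every input, and the STAU1 pull-downs were far above the GFP pull-downs. This is a log2 ratio of 4.15 ± 0.27 (SE, n = 2 against 2, edgeR adjusted p = 1e-07), a 17.7-fold gain, and 1.2 with GFP. An end inside PLS3, which codes for an actin-bundling protein, at X:+:114805830, had 189.3 and 190.0 CPM against 21.5 and 18.3. Its log2 ratio was 3.25 ± 0.26 (edgeR adjusted p = 3.73e-07), and 1.09 with GFP.

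Full-length ends were gained as well. VHL codes for the substrate-recognition part of the ubiquitin ligase that marks hypoxia-inducible factors. Its end at 3:+:10195348 had 661.9 and 524.6 CPM in the STAU1 pull-downs and 107.6 and 131.0 in the inputs. The GFP pull-downs gave 206.7 and 185.1 against 136.9 and 165.3, so pull-down and input were farther apart with STAU1 than with GFP. The VHL log2 ratio was 2.31 ± 0.21 (edgeR adjusted p = 2.06e-06), and the double ratio 1.94 (edgeR adjusted p = 0.00261). The end of CRCP, a subunit of RNA polymerase III, at 7:+:65619551, had 253.2 and 247.8 CPM against 42.5 and 60.9. In the GFP pull-downs it was below both inputs, with 33.2 and 25.5 against 45.7 and 42.9. ZNF358, a zinc-finger gene, and MCRIP1, which codes for a protein that interacts with the co-repressor CtBP, were the most abundant of the 15. MCRIP1, at 17:-:79780293, had 3033.3 and 2664.4 CPM against 632.1 and 608.0, with 757.6 and 748.5 against 456.4 and 558.1 in the GFP libraries. Its log2 ratio was 2.20 ± 0.17 (edgeR adjusted p = 3.33e-07).

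The other gained ends of the 15 had log2 ratios from 1.98 to 2.27. They were those of ZNF358, CACFD1, CERS1 (whose end is shared with GDF1), ACBD7, METTL7A, TBC1D13 and ATP2A3, ends close to those of TRMT61A and NICN1, and an end inside PSMB2. ATP2A3 codes for a calcium pump of the endoplasmic reticulum, PSMB2 for a proteasome subunit and TRMT61A for a tRNA methyltransferase. ACBD7, at 10:-:15117475, had 317.2 and 259.3 CPM against 61.0 and 72.0, and 57.4 and 51.7 against 73.4 and 90.9 with GFP. ATP2A3 was the member of this group whose GFP pull-down came nearest to the STAU1 pull-down, with 303.5 and 200.4 CPM against 499.4 and 442.4. The double ratio of ATP2A3 was 0.84 (edgeR adjusted p = 0.411), and those of CACFD1, CERS1 and TBC1D13 were also short of the threshold. Among all 15, the GFP ratio passed the test upward at 7 ends.

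**Figure D2:**
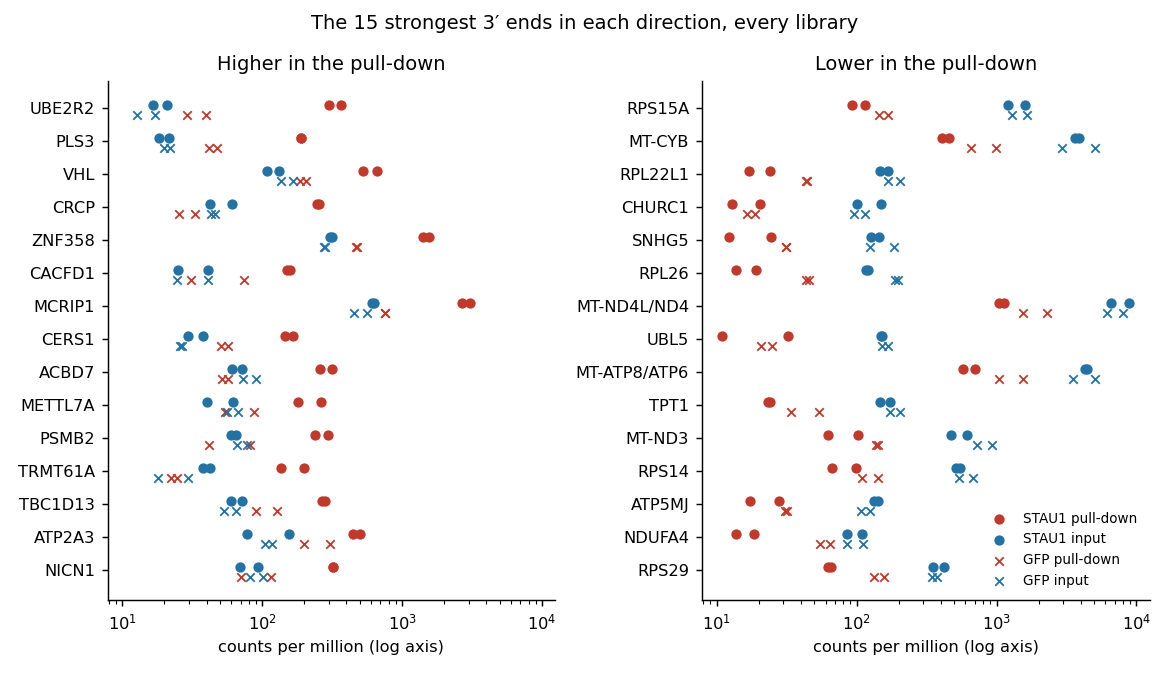
CPM (log axis) in each of the 8 libraries is plotted for the 15 gained and the 15 lost ends with the largest changes. Filled circles are STAU1 libraries, crosses are GFP libraries, red is pull-down and blue is input. Among the gained ends the red crosses lie above the blue crosses by the test at 7 of 15, as for UBE2R2 (39.4 and 29.2 CPM), and for lost ends such as RPS15A they lie low with the red circles (145.2 and 166.9 CPM).

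The lost ends were led by genes of the translation machinery and by mitochondrial mRNAs. RPS15A, a protein of the small ribosomal subunit, ends at 16:-:18794290. It had 115.4 and 93.3 CPM in the STAU1 pull-downs against 1215.8 and 1589.2 in the inputs. In the GFP libraries it had 145.2 and 166.9 CPM against 1281.2 and 1659.9. Every pull-down library of either bait was far below every input. The RPS15A log2 ratio was -3.75 ± 0.21 (SE, n = 2 against 2, edgeR adjusted p = 1.74e-08), or 13.4-fold lower, and -3.24 with GFP, and the double ratio of -0.51 missed the threshold (edgeR adjusted p = 0.516).

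The other nuclear ends among the 15 lost were those of RPL22L1, CHURC1, SNHG5, RPL26, UBL5, TPT1, RPS14, ATP5MJ, NDUFA4 and RPS29, with log2 ratios from -2.59 to -2.94. The value of UBL5, a ubiquitin-like protein, was -2.80, but -3.78 without pull-down replicate 2. The TPT1 end among the 15, at 13:-:45911313, was a minor one at -2.76, and the main TPT1 end, at 45911007, was at -1.64 (3.11-fold lower). RPL26 and RPL22L1 are large-subunit ribosomal proteins, RPS14 and RPS29 small-subunit proteins, TPT1 a translationally controlled protein, and SNHG5 a host transcript of small nucleolar RNAs. RPS14, at 5:-:149823794, had 66.6 and 99.7 CPM against 548.3 and 514.4, and 108.5 and 142.1 against 674.2 and 536.9 with GFP. NDUFA4, a subunit linked to the respiratory chain, and RPS29 differed between the baits. NDUFA4, at 7:-:10973084, had 18.4 and 13.7 CPM against 85.6 and 110.2 with STAU1, and 64.3 and 54.7 against 85.9 and 111.6 with GFP. Its double ratio was -1.88 (edgeR adjusted p = 0.0241), and that of RPS29 was -1.28 (edgeR adjusted p = 0.0396).

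The most abundant nuclear ends moved less than these. EEF2, the elongation factor that moves the ribosome along the mRNA, had the highest level, with 14119.2 and 13345.3 CPM in the STAU1 pull-downs against 16973.0 and 19672.5 in the inputs. Its log2 ratio of -0.42 ± 0.13 did not pass the test (edgeR adjusted p = 0.0756). RPL8 had -0.45 ± 0.14 (edgeR adjusted p = 0.0659). RPS28 (-1.02 ± 0.14), NME2, a nucleoside diphosphate kinase (-1.14 ± 0.17), and RPS4X (-0.91 ± 0.15) were lower, with edgeR adjusted p of 0.000134, 0.00028 and 0.000777. The double ratios of the 5 lay between -0.26 and 0.10.

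Most ribosomal protein ends fell. Genes were read at 1 main 3′ end, the member with the most reads near the known end of the gene, and 191 of 204 listed genes had one. Of the 25 placed small-subunit proteins, 23 were lower and 0 higher, with a median log2 ratio of -1.12. Of the 44 large-subunit proteins, 30 were lower and 0 higher, with a median of -1.23. The median over all members was 0.04, and the share of lower calls among members with an average log2 CPM of at least 6 was 19.6%. The 2 lists had a median average log2 CPM of 10.3 and 8.75, above that minimum, and calls were more frequent at higher levels. The part of level in their shares of lower calls was not tested. With GFP the medians of the 2 lists were -1.2 and -1.07, with 21 and 28 ends lower. RPS15A and RPS27 bounded the small-subunit list, at -3.75 and -0.16 ± 0.54. RPL26 (-2.84 ± 0.25) and RPL34 (0.08 ± 0.53) bounded the large-subunit list. RPLP0, of the ribosomal stalk, had 231.1 and 268.9 CPM against 859.6 and 1002.4. Many ribosomal protein genes have near-identical processed copies, and the counting of reads with several matches is not stated, so single values are uncertain.

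Ribosomal protein mRNAs are known for a 5′ terminal oligopyrimidine (TOP) start, a cytosine followed by a run of pyrimidines, which couples their translation to nutrient signals. The first 5 bases at RefSeq start sites (GRCh38.p14 windows of 30 bases, with 10 before the start) were therefore read for listed genes. A start was counted as TOP-like where it had a C and then 4 bases that were each C or T. It was present at 1104 of 27305 promoters in the table (4.04%). Among the small-subunit genes it was present at 14 of 19 matched (73.7%), and among the large-subunit genes at 23 of 35 (65.7%). Over all listed genes it was present at 36 of 80 matched genes with a lower end (45.0%), 13 of 69 not called (18.8%) and 1 of 7 with a higher end (14.3%). Among the 15 strongest gained ends it was present at 2 of 9 matched genes (22.2%), and among the nuclear genes of the 15 strongest lost ends at 5 of 9 (55.6%). Most genes in the first of these counts are ribosomal proteins. The following windows show the start of 5 lost genes and, below them, of 6 gained genes, 3 with such a start and 3 without, with the first 5 transcribed bases in capitals.
RPS14 (chr5:150449720-150449749, minus strand): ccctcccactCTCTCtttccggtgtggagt
RPL26 (chr17:8383174-8383203, minus strand): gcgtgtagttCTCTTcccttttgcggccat
RPS12 (chr6:132814559-132814588, plus strand): cggatgaggcCTCTTtccctgccgccgccg
TPT1 (chr13:45341164-45341193, minus strand): ctgagtcggcCTTTTccgcccgctcccccc
RPS29 (chr14:49598691-49598720, minus strand): agcgcgcagcTGGCAgcggtggttgtttct
HMGA1 (chr6:34236863-34236892, plus strand): ctgggtcgctCTTTTtaagctcccctgagc
ZNF358 (chr19:7516093-7516122, plus strand): ctcggccggcCCCTCtcgctccccgggagc
CACFD1 (chr9:133459968-133459997, plus strand): ctaatatgctCCCTCtcccacaaggcagcg
XBP1 (chr22:28800550-28800579, minus strand): gaggctgggcGCTGGgcggctgcggcgcgc
SEC61A1 (chr3:128051631-128051660, plus strand): gatcttaggcAATCAcaccgccatgctttg
MCRIP1 (chr17:81833272-81833301, minus strand): cggtggcgtcACTTCcggcggggcctccca
By these RefSeq starts, RPS29 was lost without a TOP-like start, as were UBL5, ATP5MJ and NDUFA4, whose windows are not shown. HMGA1, ZNF358 and CACFD1 were gained with one. The start so read and the direction did not pair gene by gene. EEF2, which was not called, also has one. The match is to the letters of 1 RefSeq start per gene. A pyrimidine run a few bases past that start, as in the windows of RPL4 and RPL10A, was not counted. The shares and exceptions therefore depend on where the start is annotated.

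Other abundant housekeeping groups also had more lower than higher ends. The background, not matched in level, is the 19.6% of members with an average log2 CPM of at least 6 that were lower. The cytosolic chaperone and translation factor shares (30% and 35.7%) rest on few genes, and their distance from it was not tested. Among nuclear-encoded respiratory chain genes 10 of 15 were lower and 0 higher, with a median of -1.43, COX7C at -1.53 ± 0.17 and COX6C at -1.94 ± 0.32. Glycolysis had 5 of 10 lower and 0 higher, with LDHA at -1.74 ± 0.32 and GAPDH at -0.83 ± 0.16. Actin, tubulin and their partners had 5 of 9 lower and 0 higher, with ACTG1 at -0.69 ± 0.16 and TMSB10 at -1.34 ± 0.23. Cytosolic chaperones had 3 of 10 lower, led by HSPE1 at -1.98 ± 0.32. Translation factors had 5 of 14 lower, among them EIF3E at -1.87 ± 0.32, and PABPC1 and EEF2 were not called. EEF1A1 and EIF5A, also not called, were read at ends with few reads (average log2 CPM of 2.13 and 1.78). UBB, which codes for a chain of ubiquitin units, was lower at -2.11 ± 0.16. With GFP the lower ends numbered 11 in the respiratory chain list, 3 in glycolysis, 7 among actin and tubulin, 5 among the chaperones and 5 among the translation factors. Without the low-count filter 8 glycolysis ends were lower with STAU1. The call of ACTG1 was lost without STAU1 pull-down replicate 1 or input replicate 2.

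Noncoding RNAs gave 7 of 10 placed ends lower and 0 higher, with the lowest median of the 14 lists (-1.76), against a GFP median of -0.86 with 3 lower. The double ratio passed the threshold at 0 of the 10 in either direction. The median average log2 CPM of the list was 4.77. In the ninth bin of members by level, from 4.45 to 5.78, 9.62% were lower. Without the low-count filter 4 of the 10 were lower with STAU1. Most of the 7 were host transcripts of small nucleolar RNAs: SNHG5 at -2.89 ± 0.31, ZFAS1 at -2.48, SNHG6 at -2.42, GAS5 at -1.49 ± 0.24, SNHG8 at -1.18 and SNHG1 at -0.89 ± 0.23. GAS5 had 140.6 and 251.2 CPM against 569.0 and 535.1, and 129.3 and 185.1 against 517.9 and 467.2 with GFP. MALAT1, a nuclear RNA whose mature end is not a poly(A) tail, had 3.9 and 3.1 CPM against 12.4 and 17.8. TUG1 was at 0.65 ± 0.25 and not called. The calls of SNHG1 and MALAT1 were each lost without either pull-down or without input replicate 2.

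**Figure D3:**
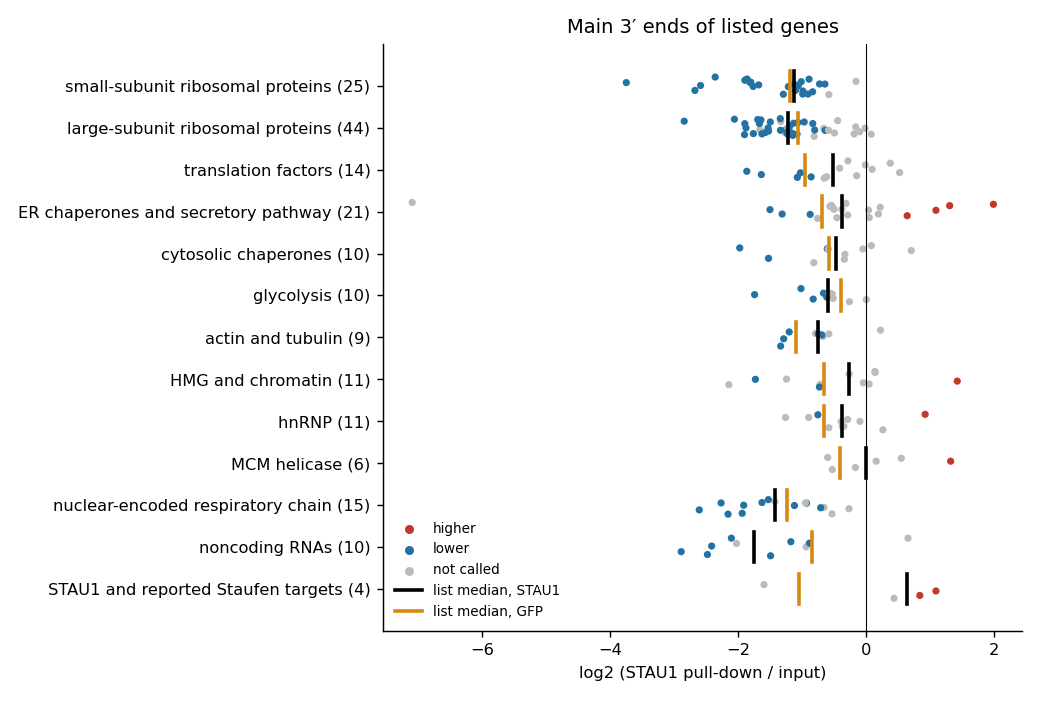
Each point is the log2 ratio (x axis) of STAU1 pull-down to input at the main 3′ end of 1 gene, by list, with the number of genes placed in brackets. Points are red where higher, blue where lower and grey where not called. Black bars are list medians and orange bars the medians in the GFP comparison, which lie close together for the ribosomal lists (-1.12 and -1.2 for the small subunit).

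Gained ends among the lists were few. Their shares were near or below the 17.7% of abundant members, except in the list of STAU1 and reported Staufen targets (2 of 4, 50%). The ER and secretory list had 4 of 21 higher and 3 lower, with a median of -0.38. Among the 4 was SSR3, read at an outer end with 122 and 239 input reads. Its inner end, outside the window used for placing, had 2125 and 3584 input reads and was lower (-1.25). The chromatin list had 1 of 11 higher (9.09%) and 2 lower, the hnRNP list 1 of 11 higher and 1 lower, and the MCM list 1 of 6 higher (16.7%) and 0 lower. The genes described next are single ends. Without the low-count filter the ER list had 5 lower ends, and the calls of RBMX and MCM4 were lost. SEC61A1, the pore-forming subunit of the ER translocon, ends at 3:+:127790525. It had 1156.8 and 1485.6 CPM in the STAU1 pull-downs against 533.1 and 537.7 in the inputs. With GFP it had 459.7 and 561.9 against 544.8 and 508.1, so the 2 GFP groups overlapped. The SEC61A1 log2 ratio was 1.30 ± 0.18 (edgeR adjusted p = 0.000148). SEC61B, another subunit of the translocon, was lower (-1.50 ± 0.25), as was the translocon-associated SSR4 (-1.31 ± 0.18). RPN2, of the oligosaccharyltransferase, was higher with STAU1 (0.64 ± 0.17) and with GFP (1.10), and its STAU1 call was lost without pull-down replicate 1 or input replicate 1. DDOST, of the same complex, was lower (-0.88 ± 0.21), a call lost without pull-down replicate 1 or input replicate 2.

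HMGA1, an architectural chromatin protein, was gained with STAU1 and lost with GFP. Its end at 6:+:34214007 had 4567.3 and 4862.9 CPM in the STAU1 pull-downs against 1676.4 and 1843.3 in the inputs. In the GFP libraries it had 989.9 and 1111.5 CPM in the pull-downs against 1529.3 and 1950.9 in the inputs. No library of one group overlapped the other in either experiment. HMGA1 had a log2 ratio of 1.42 ± 0.16 (edgeR adjusted p = 2.34e-05), against -0.73 with GFP, and the double ratio was 2.15 (edgeR adjusted p = 0.000236). MCM4, a subunit of the replicative helicase, had 81.6 and 74.5 CPM against 16.5 and 45.6, and 13.1 and 11.7 against 56.7 and 53.6 with GFP. Its log2 ratio was 1.32 ± 0.35 (edgeR adjusted p = 0.0313), but 0.78 without input replicate 1 and 2.22 without input replicate 2, and the call was lost without input replicate 1 or pull-down replicate 1. RBMX, an RNA-binding protein of the hnRNP group, was at 0.92 ± 0.21, and its call was lost without pull-down replicate 2 or input replicate 1.

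ARF1 and XBP1 are transcripts reported as Staufen1 targets. ARF1 codes for a small GTPase of the Golgi, and its mRNA has a known Staufen-binding stem in the 3′ untranslated region. XBP1 codes for a transcription factor of the unfolded protein response. XBP1 ends at 22:-:29190549 and had 272.5 and 316.3 CPM in the STAU1 pull-downs against 130.2 and 146.5 in the inputs. With GFP it had 85.0 and 108.6 against 259.4 and 140.1. XBP1 had a log2 ratio of 1.09 ± 0.25 (edgeR adjusted p = 0.0116), and the double ratio 2.13 (edgeR adjusted p = 0.00659). ARF1 ends at 1:+:228286824 and had 240.7 and 310.9 CPM against 135.6 and 173.0, with 111.3 and 95.5 against 266.5 and 181.5 for GFP. Its log2 ratio was 0.84 ± 0.23 (edgeR adjusted p = 0.0348), and its double ratio 1.95 (edgeR adjusted p = 0.00659). Both were gained with STAU1 and lost with GFP. Leaving out input replicate 1 ended both calls, and leaving out pull-down replicate 2 ended that of ARF1. Without the low-count filter ARF1 was at 0.62 and not called. STAU2, from the list of STAU1 and reported Staufen targets, was at -1.60 ± 0.52 and not called.

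Neighbouring ends on a strand mostly moved together. Within 5000 nt there were 141 pairs of called nuclear ends, of which 72 were both gained, 46 both lost and 23 opposite. In 20 of the 23 opposite pairs the end farther along the transcript was the gained one. With GFP, too, the farther end had the higher ratio in 19 of these 20 pairs. These pairs share genes and ends, so they are not independent. At UBB, the end at 17:+:16286053 had 833.1 and 858.9 CPM against 3506.0 and 3788.4, a log2 ratio of -2.11. With GFP it was also lower, at -1.75 (edgeR adjusted p = 2.19e-06), and the double ratio of -0.36 missed the threshold (edgeR adjusted p = 0.581). Beyond the known end of the gene, 1536 nt farther, an end at 16287589 had 126.7 and 140.0 CPM against 13.6 and 34.4, a log2 ratio of 2.46 ± 0.36 (edgeR adjusted p = 0.00026). That ratio was 1.95 without input replicate 1 and 3.27 without input replicate 2. In the GFP libraries this second end was not separated, at 27.0 and 43.7 against 44.0 and 31.8 CPM.

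The same order was found at 3 other placed genes. RPL27A was lower at its known end (-1.53 ± 0.16), and an end 1682 nt farther was higher (2.05 ± 0.51), a call lost without input replicate 1 and a ratio of 2.76 without input replicate 2. SSR3, a translocon-associated protein, was lower at an inner end (-1.25 ± 0.22) that had 175.8 and 156.2 CPM against 381.2 and 407.2. At the end 2859 nt farther, SSR3 was higher (1.99 ± 0.29), with 102.6 and 92.3 CPM against 21.9 and 27.2. The inner SSR3 end was also lower with GFP (-1.01), and the outer end was at 0.06. RBMX was lower at an inner end (-2.89 ± 0.54) with few reads and higher at its known end. The inner RBMX ratio was -2.15 without input replicate 1. Whether a gene's outer end gained more than its inner end was read here at called pairs only.

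Calls were unevenly spread over the chromosomes. Chromosome 19 had the largest share of gained ends, 149 of 1520 (9.80%), against 3.42% lost, and a median log2 ratio of 0.46. Chromosome 22 followed with 61 of 682 gained (8.94%) and 15 lost (2.20%), and a median of 0.39. Chromosome 13 had the smallest share among chromosomes 1 to 22 and X, 5 of 409 (1.22%), against 18 lost (4.40%), and a median of -0.16. Chromosome X had the largest share of lost ends, 42 of 720 (5.83%). The GFP medians followed a similar order, at -0.01 for chromosome 19, -0.00 for 22 and -0.41 for 13. Ends on chromosome 19 were also more abundant, with a median average log2 CPM of 2.82 against 2.11 on chromosome 13, and the part of this in the share of calls was not tested. On chromosome 19 both strands had high shares, 68 of 784 on the plus strand and 81 of 736 on the minus strand. Over all nuclear chromosomes the 2 strands had similar shares, with 536 of 11918 plus-strand ends gained and 418 lost, against 489 and 400 of 11284 on the minus strand. The median was 0.09 on each strand.

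**Figure D4:**
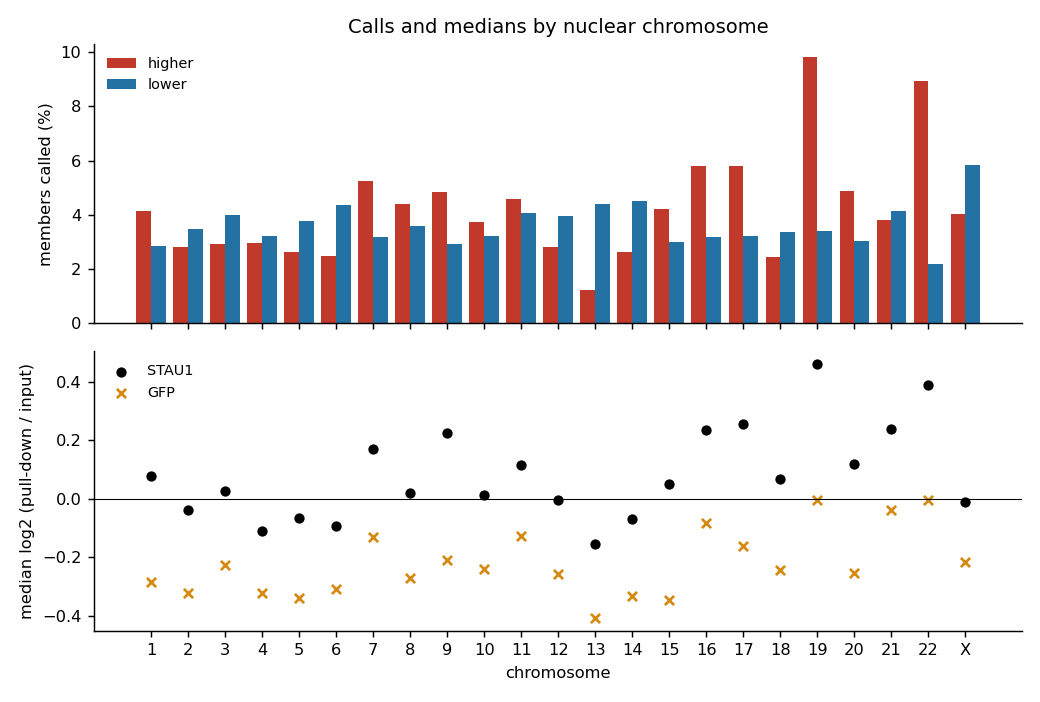
The upper bars give the percentage of tested members called higher (red) or lower (blue) on each chromosome, from 0, with chromosome Y (3 members) left out. The lower points give the median log2 ratio of pull-down to input for STAU1 (black circles) and GFP (orange crosses), with chromosome 19 highest for STAU1 at 0.46 and chromosome 13 lowest at -0.16.

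Mitochondrial 3′ ends were depleted as a share of reads, and most of their lower calls were on the plus strand. Mitochondrial mRNAs are transcribed and translated inside the organelle, and the heavy-strand transcript that carries most of them is the plus strand here. Mitochondrial reads made up 5.07% and 5.21% of the STAU1 pull-downs and 11.1% and 9.96% of their inputs. Of 394 plus-strand members, 135 were lower (34.3%) and 1 was higher, with a median log2 ratio of -1.51. Of 1508 minus-strand members, 52 were lower (3.45%) and 3 higher, with a median of -0.51. Over all members 4.00% were lower, so the minus-strand share was not above that of members in general. On the minus strand 30 of the 52 lower ends were among 277 in the control region (10.8%), where replication and transcription start. Outside it 22 of 1231 were lower (1.79%). With GFP the medians of the strands were -1.45 (plus) and -0.63 (minus), and mitochondrial reads made up 5.46% and 5.68% of the pull-downs and 10.6% and 10.1% of the inputs. Of the plus-strand members 89 were lower with GFP. The double ratio passed the threshold at 1 of the 394 in each direction.

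MT-CYB, cytochrome b, was the lowest of the mitochondrial mRNAs. Its end at 15888 had 406.8 and 457.8 CPM in the STAU1 pull-downs against 3857.1 and 3656.5 in the inputs, and 653.2 and 997.8 against 2959.7 and 5045.0 with GFP. Pull-down and input did not overlap for either bait. MT-CYB had a log2 ratio of -3.12 ± 0.24 (edgeR adjusted p = 2.84e-07), and -2.28 with GFP. The shared end of MT-ND4L and MT-ND4, of complex I, was at -2.83 ± 0.21, and that of MT-ATP8 and MT-ATP6, of the ATP synthase, at -2.77 ± 0.21. MT-ND3 (-2.74 ± 0.24) and MT-ND2 (-2.57 ± 0.20) were close to them, and MT-CO3, the most abundant, was at -1.73 ± 0.14 with 5512.0 and 5426.5 CPM against 18451.9 and 17936.7. With GFP the ends of MT-ND4L and MT-ND4, of MT-ATP8 and MT-ATP6, and of MT-ND2 were at -1.89, -1.74 and -1.78, nearer to 0 than with STAU1. The double ratios of these mRNAs ran from -0.17 to -1.03 and none passed the threshold. The 16S ribosomal RNA MT-RNR2 was at -2.43 ± 0.24. The 12S ribosomal RNA MT-RNR1 was at -0.81 ± 0.19 (edgeR adjusted p = 0.0145), a call lost without either pull-down replicate or without input replicate 1. Mitochondrial gene ends were sought within 30 nt of their known position. The ends so placed for MT-CO2 (8261) and MT-ND5 (14161) had under 10 CPM in each STAU1 library and were not called. These transcripts may also end elsewhere. Between the placed ends of MT-ND5 and MT-CYB, an end at 14746 had 310.1 and 247.8 CPM against 178.7 and 182.3. It was given no gene and was not called, with a log2 ratio of 0.63 ± 0.20, and -0.63 with GFP.

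One plus-strand mitochondrial end rose. It lies at 5900, just ahead of the coding sequence of MT-CO1, and was singled out after its values were seen. It had 8000.3 and 7104.8 CPM in the STAU1 pull-downs against 3661.5 and 4190.5 in the inputs. With GFP it had 1374.2 and 1490.5 against 3041.7 and 4229.2. The log2 ratio was 0.94 ± 0.17 (edgeR adjusted p = 0.0015) with STAU1 and -1.34 with GFP. The most abundant minus-strand end, at 219 in the control region, was lower with both baits, at -1.16 ± 0.14 and -1.14.

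**Figure D5:**
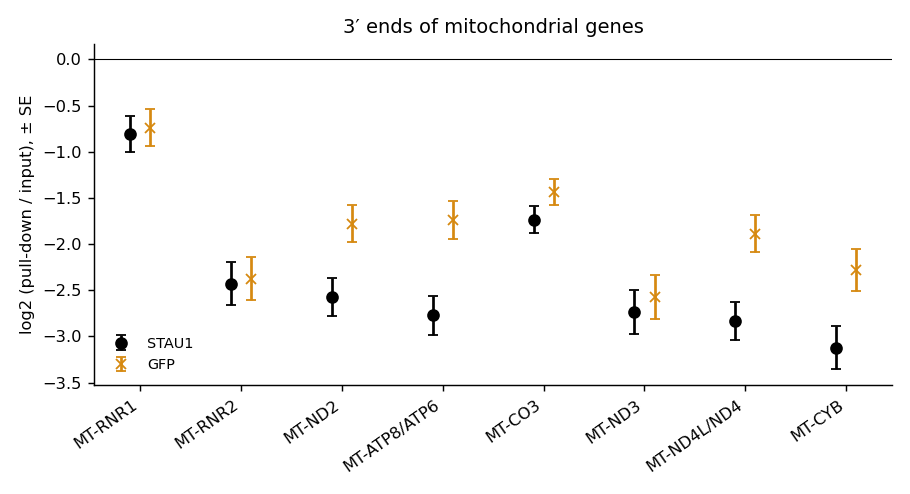
The log2 ratio of pull-down to input with its SE (y axis) is plotted for the 3′ ends of mitochondrial genes with an average log2 CPM of at least 6, for STAU1 (black circles) and GFP (orange crosses). All values lie below 0, from -0.81 for MT-RNR1 to -3.12 for MT-CYB with STAU1.

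Outside the chromosomes, 38 members lay on contig GL000220, which carries ribosomal RNA repeats. With STAU1 none was called by edgeR, with a median log2 ratio of 1.33, and with GFP 2 were higher, with a median of 1.25. At an unadjusted p under 0.05, 2968 members were higher and 2622 lower in the STAU1 comparison as a whole.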

How the data were processed

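The authors deposited, for 8 libraries, unnormalized counts of reads at clustered poly(A) sites. The submitters' processing notes name STAR as the aligner and hg19 as the build. Their versions, the clustering and the treatment of multi-mapping reads are not stated. The table names no gene. Gene names were placed from known hg19 3′ ends (the member with the most reads from 2000 nt before to 1000 nt past the end, a window widened after values were seen), with the chromosome matched for all 233 genes and the strand for 193 in RefSeq tables of GRCh38.p14; ends inside a known gene span are so described.

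Counts were fitted with edgeR 4.0.16 in R 4.3.3 (limma 3.58.1; quasi-likelihood, 4 groups, 8 libraries, 4 residual degrees of freedom, TMM, filterByExpr on the groups), and p-values were adjusted by Benjamini-Hochberg over all 33744 tested sites, with a threshold of 0.05. The SE is the log2 ratio divided by the square root of F. The script was tested on simulated data. Named are the 15 largest changes each way with an average log2 CPM of at least 6 and pull-down and input libraries not overlapping, the 5 most abundant nuclear members, the mitochondrial gene ends, the extremes of each of 14 gene lists, RPS15A and UBB; further genes were added after their values were seen. Members and lists were chosen with earlier results of these data known. Alternatives changed scaling, filter, tool (DESeq2 1.42.0), samples, block and member minimum. Replicates differed beyond counting noise (chi-square per degree of freedom from 3.41 to 15.4), so no library was a duplicate of another. The fractionation libraries were not used. One listed gene is not reported here, and the plot of the lists leaves out its list. Without molecular identifiers, PCR copies of a molecule count as separate reads.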

Additional observations from a re-analysis of the deposited data

Results flagged for a closer look

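For 21 of the named ends the STAU1 and the GFP pull-down differed by the test of the difference itself (edgeR double ratio, adjusted over all tested sites). Those with a double ratio above 0 on the log2 scale were UBE2R2 (2.95), PLS3 (2.16), VHL (1.94), CRCP (2.86), ZNF358 (1.50), MCRIP1 (1.63), ACBD7 (2.70), METTL7A (1.92), PSMB2 (2.32), TRMT61A (2.08), NICN1 (1.95) and, from the gene lists, SSR3 at its outer end (1.92), HMGA1 (2.15), MCM4 (3.47), XBP1 (2.13), ARF1 (1.95) and SEC61A1 (1.35). The end past UBB (2.56) and the mitochondrial end at 5900 (2.29) were of the same kind. Those below 0 were NDUFA4 (-1.88) and RPS29 (-1.28). Of the 15 strongest gained ends 11 were in this group, and of the 15 strongest lost ends 2. Each 15 were chosen by the STAU1 ratio, which is part of the double ratio, so these counts are not independent of that choice.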

How the results depend on the processing

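No named end that was called changed direction under the 13 alternatives, and 59 of 72 called named ends kept their call when each STAU1 library was left out in turn. Library totals moved the member median to 0.18 and the mitochondrial plus-strand median to -1.38, while the median of all tested sites went from 0.12 to 0.26. Without the low-count filter 319 members were higher, the member median was -0.18 and the mitochondrial median -1.72. DESeq2 called 1484 higher and 1200 lower. Leaving out 1 STAU1 library gave 443 to 1505 higher, 564 to 941 lower, 93 to 126 mitochondrial plus-strand ends lower, member medians from 0.0066 to 0.20 and mitochondrial medians from -1.65 to -1.50. The higher share of calls was 50.6%, but 38.7% without STAU1 input replicate 1 and 61.5% without input replicate 2. With the replicate number as a block, 1354 were higher and 1241 lower and the mitochondrial median was -1.58. Same-numbered pull-down and input did not deviate together over the members (correlations of -0.01 and -0.00). Counting noise at ends with few reads weakens such a correlation, so whether they were paired is not settled. For all scalings the 2 ribosomal lists stayed at 0 higher ends and medians of -0.98 or lower; the median of the MCM list was -0.01 and changed sign with RLE, library totals and DESeq2. Causes were not tested. With 2 libraries a group and 4 residual degrees of freedom, ends with few reads could rarely be called, and low ends have uncertain ratios.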
